A study of Macaca fascicularis with 64 samples.

Results

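The cells described here were δ-cells of the pancreatic islets of cynomolgus monkeys, chosen by dominant somatostatin. A cell was retained with over 800 macaque genes and over 10000 UMIs (unique molecular identifiers, 1 for each captured RNA molecule), and a retained cell was a member where SST was the highest of the 4 hormone genes GCG, INS, SST and PPY, reached 20000 CPM (UMIs of a gene per 1000000 UMIs of macaque genes) and was at least 2 times the next hormone. This gave 101 δ-cells of 5908 retained cells among 6141 barcodes, beside 4401 α-cells with dominant GCG, 1086 β-cells with dominant INS and 58 PP-cells with dominant PPY. The study set islets of young monkeys, aged 4 to 6 years, against those of old monkeys, aged 18 to 21 years, with 4 females and 4 males at each age and 4 single-cell libraries from each monkey. All animals were non-diabetic, the islets came from the tail of the pancreas, and 1 animal was processed per day, so that animal and day cannot be told apart.

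δ-cells are the somatostatin-secreting cells of the islet. Somatostatin acts over short distances on the Gi-coupled receptors of neighbouring α- and β-cells and lowers the secretion of both glucagon and insulin, and δ-cells themselves respond to glucose, ghrelin, leptin and paracrine signals from β-cells. They are electrically excitable, extend neurite-like processes between their neighbours, and depend on the homeodomain factor HHEX for their identity.

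The 101 δ-cells came from 15 of 16 monkeys and from 42 of 64 libraries, with at most 8 in 1 library. The young monkeys gave 63 δ-cells of 2957 retained cells and the old monkeys 38 of 2951. Old female 3 gave 0 of 372 cells, which allows a share of up to 0.806%. For comparisons between monkeys, the UMIs of all δ-cells of a monkey were summed, and the 11 monkeys with at least 5 δ-cells were kept: young females 1 to 4 with 13, 5, 7 and 5 cells, young males 1 to 3 with 5, 12 and 14 cells, old females 1 and 2 with 6 and 9 cells, and old males 2 and 4 with 5 and 10 cells. The summed δ-cells held between 176066 and 689932 UMIs per monkey, against 12249078 to 26709642 for the α-cells and 358312 to 11224803 for the β-cells of the same animals, so that δ-cell values carry the larger counting error. A δ-cell held a median of 43877 UMIs (12314 to 122164) and of 3378 genes (917 to 5475). The libraries share one set of 96 barcodes, 93 of which occur in all 64 libraries, and each cell carries its library in its name. Young male 3 and old female 1 stood apart in gene detection: at 10000 UMIs their δ-cells held medians of 1119.5 and 1249.5 genes, where the other 9 monkeys lay between 2091 and 2584, and the α-cells of young male 3 were the lowest of the 11 monkeys too, with 1554 genes. Counts that rest on these animals are given with and without them.

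The values that chose the cells are given as a description. Per δ-cell, SST ran from 38156 to 266803 CPM with a median of 100029 CPM. The next hormone was GCG in 94 cells and INS in 7, and SST exceeded it by a median of 3.28 times (2.00446 to 33.1). The 3 cells just inside the ratio had 2.00446, 2.00608 and 2.04 times the next hormone, and the 3 just outside had 1.92, 1.89 and 1.88 times. SST was the highest hormone in 11 more cells that the rule left out, 10 for the ratio alone and 1 with 18279 CPM of SST. Most of these 11 still carried δ-cell genes: 10 had a UMI of at least 3 of the 6 markers HHEX, RBP4, LEPR, GHSR, CSGALNACT1 and ANK3.

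**Figure D1:**
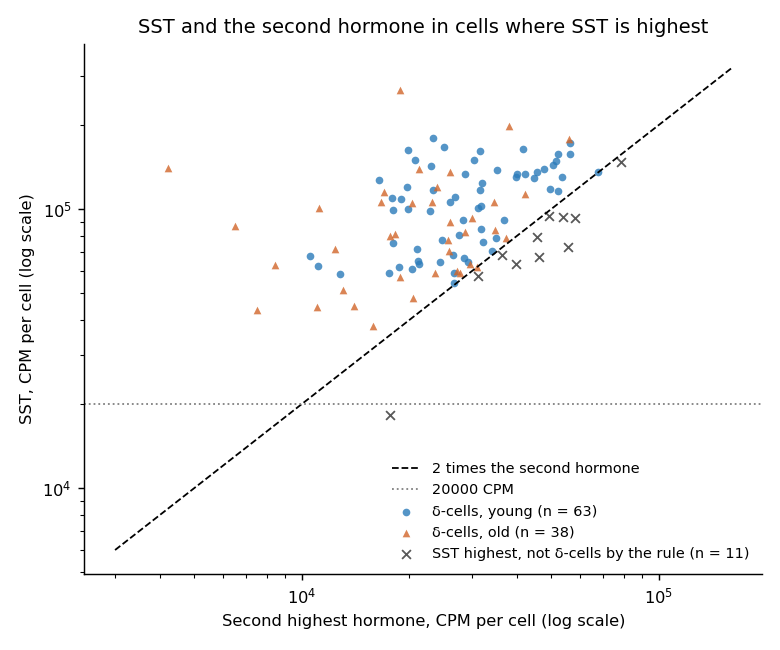
SST (y axis, CPM per cell, log scale) against the highest other hormone (x axis, CPM per cell, log scale) in every retained cell in which SST was the highest of the 4 hormones. Circles are the 63 δ-cells of young monkeys, triangles the 38 of old monkeys and crosses the 11 cells outside the rule, the dashed line marks 2 times the other hormone and the dotted line 20000 CPM. Most δ-cells lie within a few times of the dashed line, since GCG, the other hormone in 94 of 101 cells, had a median of 26038 CPM over the δ-cells.

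The label was set against genes that the rule did not use. Of these, HHEX, ANK3 and CSGALNACT1 were reported by the study as δ-cell genes from the same samples, so they are no independent check. HHEX, the transcription factor that maintains δ-cells, had a UMI in 82 of 101 cells, RBP4, a retinol carrier, in 89, LEPR, the leptin receptor, in 84, ANK3, the scaffold of the axon initial segment, in 85, CSGALNACT1, an enzyme of chondroitin sulfate synthesis, in 48, and GHSR, the ghrelin receptor, in 33. At least 3 of these 6 were present in 88 δ-cells (87.1%), against 100 α-cells (2.27%), 38 β-cells (3.50%) and 3 PP-cells (5.17%), although α-cells (median 64894 UMIs) and β-cells (median 76826 UMIs) were sequenced more deeply than δ-cells (median 43877 UMIs). Of the δ-cells, 10 had all 6 markers, 42 had 5, 27 had 4, and 2 had none. HHEX, LEPR and RBP4 occurred together in 69 cells. The other types had low shares of each marker, which stand here as the background: LEPR had a UMI in 83.2% of δ-cells, 5.29% of α-cells and 3.50% of β-cells, and with each cell thinned to 10000 UMIs in 74.3%, 0.984% and 0.46%. RBP4 reached 36.3% of α-cells and 33.9% of β-cells unthinned, and 13.1% and 8.38% thinned, where δ-cells had 88.1% and 82.2%.

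Across the 11 monkeys every one of these 6 markers was higher in δ-cells than in both other types. RBP4 lay at 1903, 7742 and 13432 CPM (lowest, median and highest monkey), with a mean of 8155 ± 3800 CPM (SD, n = 11 throughout for δ-, α- and β-cells) against 21.1 CPM in α-cells and 13.7 CPM in β-cells, which gave log2 fold changes of 8.48 (SE 0.29, adjusted p = 2.71e-27, edgeR's quasi-likelihood test) and 9.17 (SE 0.30, adjusted p = 5.25e-28). LEPR lay at 99.3, 499 and 807 CPM, with log2 fold changes of 7.95 (SE 0.44, adjusted p = 2.8e-19 by edgeR) against α-cells and 8.92 (SE 0.50, adjusted p = 5.41e-19) against β-cells. HHEX lay at 51.2, 362 and 1073 CPM, with log2 fold changes of 7.76 (SE 0.46, adjusted p = 2.31e-18 by edgeR) and 10.05 (SE 0.56, adjusted p = 5.41e-19). The lowest δ-cell monkey of each of these genes stood above every monkey's α- and β-cells. The order of the monkeys differed between the genes: young male 3 was lowest for HHEX, old female 1 was highest for HHEX and lowest for LEPR, and old female 2 was lowest for RBP4. ANK3 lay at 83.2, 425 and 918 CPM, and its distance to the other types was smaller, 5.27 (SE 0.39, adjusted p = 5.15e-15 by edgeR) on the log2 scale against α-cells and 3.64 (SE 0.37, adjusted p = 1.4e-10) against β-cells, where its mean was 41.0 CPM. CSGALNACT1 lay at 8.32, 115 and 645 CPM, 7.75 (SE 0.66) and 7.58 (SE 0.69) above α- and β-cells on the log2 scale. GHSR lay at 4.16, 28.3 and 109 CPM, 8.00 (SE 0.80) and 9.63 (SE 1.03) above them, and was close to absent elsewhere, with a UMI in 0.613% of α-cells and 0.184% of β-cells against 32.7% of δ-cells.

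**Figure D2:**
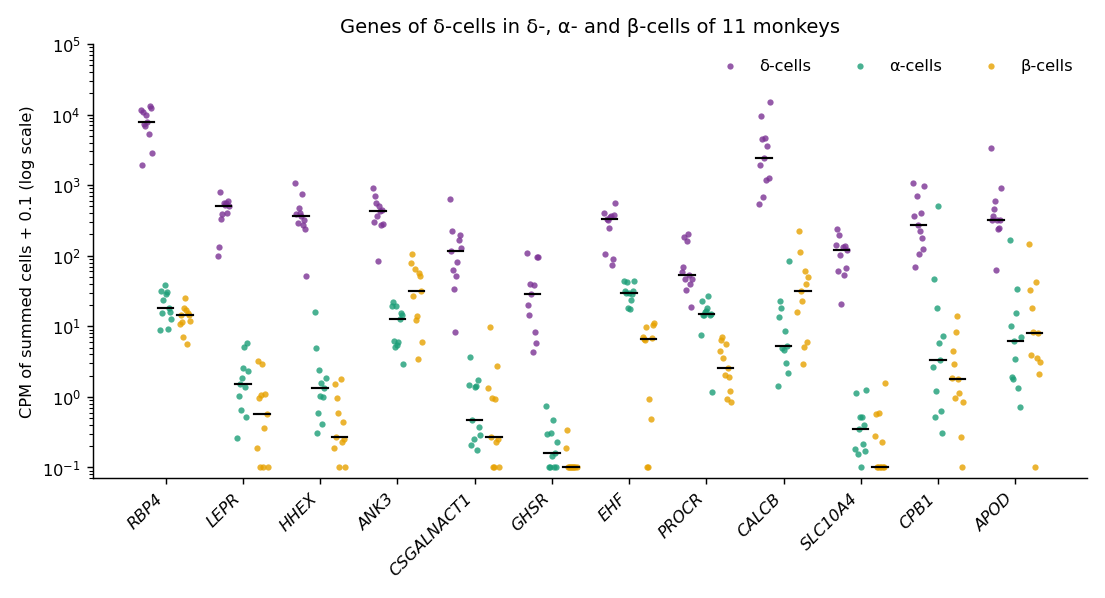
CPM plus 0.1 (log scale) of 12 genes called higher in δ-cells, 1 point per monkey for the summed δ-cells (purple), α-cells (green) and β-cells (yellow) of the 11 monkeys with at least 5 δ-cells, with the median as a bar. For RBP4, LEPR and HHEX the δ-cell points stand clear of all α- and β-cell points, and for CALCB some β-cell points come closer without overlap. For ANK3, CSGALNACT1, PROCR, CPB1 and APOD the lowest δ-cell point lies below the highest α- or β-cell point.

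Of 10814 genes tested, 118 were higher in δ-cells than in both α- and β-cells (1.09%, log2 fold change over 1 and adjusted p under 0.05 by edgeR against each), and 571 were lower than in both (5.28%). Of the 118, 33 stood above both types in each of the 11 monkeys, 12 had no overlap between the monkeys' δ-cells and any monkey's α- or β-cells, and 85 had a UMI in over 25% of δ-cells. Without young male 3 the numbers were 129 and 514, and without old female 1 117 and 388. The larger number of lower genes depended on the cells and UMIs compared: in a comparison added after these counts were seen, in which each animal's α- and β-cells were drawn down to as many cells and UMIs as its δ-cells had, 53 genes were higher and 52 lower of 5668 tested (0.935% and 0.917%). Of these, 47 and 52 were among the 118 and the 571, and all 63 higher and 223 lower genes that could be tested at matched depth kept their sign. Calls of single genes below are at full depth unless matched depth is stated. The median log2 fold change of all genes was -0.51 against α-cells and -0.36 against β-cells, and -0.06 against each at matched depth, and 17.1% of calls were higher with TMM scaling, 32.6% with size factors (149 higher and 308 lower) and 50.5% at matched depth.

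**Figure D3:**
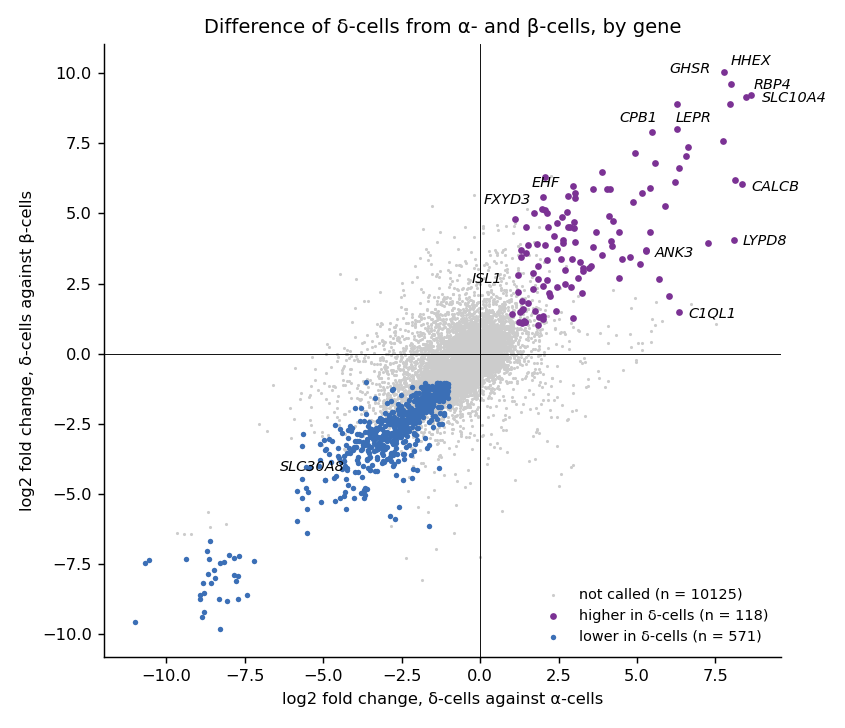
Log2 fold change of each of the 10814 genes in δ-cells against α-cells (x axis) and against β-cells (y axis), 11 monkeys each. Purple points are the 118 genes called higher than both, blue points the 571 called lower and grey points the other 10125. The purple points reach 8.62 on the x axis and 10.05 on the y axis. Of the blue points 31 are genes with 0 UMIs in δ-cells, at the lower left, whose fitted values depend on the prior count.

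Apart from the markers, the largest log2 fold changes against α-cells among the 20 genes chosen by rank were those of SLC10A4, a transporter-like protein of synaptic vesicles, CALCB, which encodes the second calcitonin gene-related peptide, and LYPD8, a Ly6-family protein known from the colon. SLC10A4 lay at 20.8, 119 and 240 CPM over the δ-cells of 11 monkeys, with means of 0.352 CPM in α-cells and 0.251 CPM in β-cells and log2 fold changes of 8.62 (SE 0.56, adjusted p = 6.58e-17 by edgeR) and 9.22 (SE 0.65, adjusted p = 1.2e-15). By the smaller of its log2 fold changes it stood first, ahead of RBP4, among the genes with a UMI in over 25% of δ-cells. CALCB lay at 540, 2455 and 15021 CPM, 8.35 (SE 0.43, adjusted p = 2.56e-20 by edgeR) above α-cells and 6.06 (SE 0.40, adjusted p = 2.98e-16) above β-cells on the log2 scale. Reads shared with its near copy CALCA could not be told apart here. LYPD8 lay at 444, 1129 and 2444 CPM, 8.09 (SE 0.56) above α-cells and 4.06 (SE 0.50) above β-cells, where it had a mean of 143 CPM. In young male 2 its β-cell level, 473 CPM, was above its δ-cell level of 444 CPM, and in every other monkey the δ-cells were higher. These 3 genes were found in fewer δ-cells than RBP4: SLC10A4 had a UMI in 40 of 101 cells, CALCB in 69 and LYPD8 in 73. APOD, a lipid-binding lipocalin, lay at 62.4, 321 and 3409 CPM, highest in old female 1, and 5.90 (SE 0.50) and 5.27 (SE 0.49) above the other types. The rest of the 20 genes were markers given above, CPB1, 1 gene listed by identifier alone, TPPP3, DPYSL3, AKAP12 and PCP4, which encode a tubulin-polymerizing protein, a growth cone protein, a scaffold of protein kinase A and a calmodulin regulator, and the laminin receptor subunit ITGA6, the protease inhibitor TIMP1, the fatty acyl reductase FAR2, the lysosomal protein LITAF and the adenylate kinase AK5. Of the 118 genes, 5 are listed by an Ensembl identifier alone.

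CALCB varied widely from cell to cell. In 32 of 101 δ-cells it had 0 UMIs, and in 9 cells of 6 monkeys it exceeded 10000 CPM. The highest cell, from young male 3, held 131220 CPM of CALCB beside 133681 CPM of SST in 13405 UMIs, and the next held 108404 CPM. No α-cell and no β-cell exceeded 10000 CPM. The level of 15021 CPM in the summed δ-cells of young male 3, the highest monkey, therefore rests in large part on its highest cells, which were of low depth.

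The pancreatic protease CPB1 was called as well. It encodes a carboxypeptidase that acinar cells secrete, and was 6.29 (SE 0.72, adjusted p = 4.18e-09 by edgeR) above α-cells and 8.00 (SE 0.75, adjusted p = 1.53e-11) above β-cells on the log2 scale, at 68.4, 276 and 1058 CPM in δ-cells and with a UMI in 61 of 101. Of the 10 acinar markers 6 were listed in the files and CPB1 alone passed the filter on low counts. Other acinar enzymes were low in the same cells, PNLIP at 9.36 CPM and CPA1 at 2.23 CPM, and the sum of the list, 68.4 to 1058 CPM over monkeys, was made almost wholly of CPB1. In the α-cells of young female 2 CPB1 reached 511 CPM.

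Hormones of the other types were present in δ-cells, as a description, since the rule capped GCG and INS in them. GCG had a mean of 24615 ± 7769 CPM in δ-cells, a median over monkeys of 28.5% of its α-cell level, and β-cells held 28.1% of it. INS had 6445 ± 2787 CPM, 7.78% of its β-cell level, where α-cells held 7.66%. TTR, the transthyretin of α-cells, stood at 40.04% of its α-cell level in δ-cells and 46.1% in β-cells. For the α-cell markers other than GCG, TTR among them, the median was 11% of the α-cell level over 17 genes (0 to 60.7%). For β-cell markers other than INS and RBP4 it was 12.3% of the β-cell level over 18 genes. Some genes of the β-cell list stood well above that: SYT13, a synaptotagmin, had 665 ± 301 CPM in δ-cells and 379 CPM in β-cells, PCSK1, a prohormone convertase, 298 ± 142 and 223 CPM, and HADH, a mitochondrial enzyme of fatty acid oxidation, 571 ± 254 and 958 CPM, where α-cells had 97.0, 7.04 and 47.0 CPM. All 3 were higher than in α-cells (log2 fold changes of 2.59, 5.45 and 3.45, adjusted p = 6e-12, 7e-18 and 1.62e-18 by edgeR), while none was called higher or lower than both types. In contrast, IAPP, SLC2A2 and MAFA, which define β-cells, were at a median of 2.58%, 0.573% and 1.79% of their β-cell levels.

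Among 28 tested islet transcription factors, 5 were higher in δ-cells (HHEX, ISL1, EHF, MEIS1 and ETV1) and 3 lower (NKX6-1 and ESRRG among them), where 1.09% and 5.28% of all genes were called, with list medians of -0.34 against α-cells and 0.46 against β-cells on the log2 scale, beside -0.51 and -0.36 for all genes. ISL1, a LIM-homeodomain factor of all islet endocrine cells, had 1193 ± 291 CPM in δ-cells, 465.6 ± 105 CPM in α-cells and 246 ± 88.0 CPM in β-cells, with log2 fold changes of 1.22 (SE 0.15, adjusted p = 1.71e-08 by edgeR) and 2.21 (SE 0.15, adjusted p = 1.31e-15), and was higher in each of the 11 monkeys. EHF, an epithelial ETS factor, lay at 73.6, 335 and 567.5 CPM, 3.04 (SE 0.37, adjusted p = 1.94e-08) above α-cells and 5.73 (SE 0.42, adjusted p = 1.11e-14) above β-cells by edgeR. NKX6-1, the β-cell homeodomain repressor, had 13.5 ± 11.4 CPM in δ-cells, 51.6 CPM in α-cells and 220 CPM in β-cells, and fell by 2.14 and 4.13 on the log2 scale. Of 15 tested δ-cell markers 8 were higher, the 6 above with EHF and PROCR, and none was lower. PROCR, the protein C receptor, lay at 18.9, 53.2 and 202 CPM, 2.17 (SE 0.47, adjusted p = 8.04e-04 by edgeR) above α-cells and 4.52 (SE 0.52) above β-cells. These markers were in part chosen on these samples, which makes their count no independent evidence. The same holds for HHEX and EHF in the count of transcription factors.

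The receptors through which other signals reach δ-cells gave 4 higher genes of 20 tested, GHSR, LEPR, GABBR2 and SCTR, and 1 lower, GRIK2, beside 1.09% higher and 5.28% lower of all genes. GHSR and LEPR are also among the δ-cell markers given above, so the count of higher genes is in part fixed by that choice. The list medians were 0.07 against α-cells and 0.54 against β-cells. SCTR, the secretin receptor, had 87.5 ± 50.8 CPM in δ-cells against 4.94 CPM in α-cells and 15.7 CPM in β-cells (log2 fold changes of 4.42 and 2.68, adjusted p = 1.08e-07 and 3.88e-04 by edgeR). GABBR2, a subunit of the GABA-B receptor, had 27.0 ± 27.0 CPM, with log2 fold changes of 3.18 and 3.28. GRIK2, a kainate receptor subunit, had 0.303 CPM in δ-cells and 17.5 and 4.56 CPM in α- and β-cells. CASR, the calcium-sensing receptor, and GCGR, the glucagon receptor, were shared with β-cells: CASR had 164 ± 74.3 CPM in δ-cells and 164 ± 41.9 CPM in β-cells (log2 difference -0.25, SE 0.29, adjusted p = 0.615 by edgeR) but 16.3 CPM in α-cells, and GCGR had 54.1 ± 77.0, 37.4 ± 29.2 and 1.19 ± 0.897 CPM. FFAR4, a receptor of long-chain fatty acids, and CRHR2, the receptor of urocortin 3, did not pass the filter on low counts and have no test. FFAR4 lay at 0, 56.8 and 98.2 CPM, with a UMI in 30.7% of δ-cells, 0.318% of α-cells and 0.368% of β-cells, and CRHR2 at 0, 25.2 and 112 CPM, with a UMI in 29.7%, 1.64% and 0.737%. GLP1R, the incretin receptor, had 0 of the 4239419 UMIs of the summed δ-cells. Of 15 receptor tyrosine kinases and related receptors none was called. Among the genes called higher outside the list, CHRNA3, a nicotinic acetylcholine receptor subunit, had 94.1 ± 94.6 CPM in δ-cells against 0.737 and 6.83 CPM, with log2 fold changes of 7.27 (adjusted p = 5.07e-09 by edgeR) and 3.93 (adjusted p = 2.04e-04), and was named after its values were seen.

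Among genes of excitability, exocytosis and neuronal contact few members were called, beside 1.09% higher and 5.28% lower of all genes, and these counts are no result about the groups. Of 32 tested ion channels of excitability 2 were higher, the sodium-activated potassium channel KCNT2 (77.0 ± 85.1 CPM in δ-cells, 2.64 and 4.29 CPM in α- and β-cells) and the sodium channel SCN9A (86.0 ± 65.6, 19.1 and 6.70 CPM), and 1 was lower. Of 22 exocytosis genes SYT2, a fast calcium sensor of synaptic vesicles, was higher, at 46.8 ± 37.8 CPM against 4.08 and 1.02 CPM, and none was lower. Of 35 genes of neuronal adhesion, axon and synapse, ANK3 and STMN2 were higher and CNTN1 and ROBO2 lower. STMN2, a microtubule regulator of growing axons, had 155 ± 64.6 CPM in δ-cells, 49.7 CPM in α-cells and 8.399 CPM in β-cells. ROBO2, a Slit receptor, had 5.45 ± 6.06, 42.9 and 75.3 CPM. The medians of the neuronal list were -0.50 and 0.42 on the log2 scale, with opposite signs, and the same held for the exocytosis list at -0.35 and 0.39. Of 29 genes of cAMP and calcium signalling, PDE4B, a cAMP phosphodiesterase, was higher and PDE4D, PDE10A and RGS4 were lower. RGS4, which shortens the signals of Gi- and Gq-coupled receptors, had 26.1 ± 13.2 CPM in δ-cells against 320 CPM in α-cells and 101 CPM in β-cells (log2 fold changes of -3.79 and -1.92).

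Of 26 tested genes of granule proteins and prohormone processing none was higher and 4 were lower, SLC30A8, QPCT, CPE and SCG3, beside 1.09% and 5.28% of all genes. The list medians, -0.44 against α-cells and -0.26 against β-cells, lay close to those of all genes (-0.51 and -0.36). SLC30A8, the zinc transporter of the granule, had 39.6 ± 26.2 CPM in δ-cells against 398 ± 78.2 CPM in α-cells and 474 ± 152 CPM in β-cells, with log2 fold changes of -3.61 (SE 0.24, adjusted p = 1.35e-16 by edgeR) and -3.80 (SE 0.24, adjusted p = 4.29e-17). QPCT, which cyclizes amino-terminal glutamine, had 532, 2344 and 1718 CPM (log2 fold changes of -2.30 and -1.83). CPE, the carboxypeptidase that trims prohormones, had 977, 1891 and 2199 CPM, and SCG3, a granin that anchors granule cargo, 1709, 3166 and 4484 CPM. The most abundant members of the list, among them PCSK1N (7008 CPM), SCG5 (3976 CPM), SCGN (3628 CPM) and CHGB (1785 CPM), were not called. SLC30A8 was also lower at matched depth, as were these lower genes chosen by rank: TPD52L1, a D52-family protein, RIN2, a Rab5 exchange factor, GGH, a lysosomal hydrolase of folate polyglutamates, SRM, the spermidine synthase, CCND2, the cyclin D2 of G1, and CHST9, a sulfotransferase of glycoprotein hormones. Of these, GGH had 51.4 CPM in δ-cells against 332 and 553 CPM (log2 fold changes of -2.85 and -3.57), and CCND2 24.4 against 215 and 117 CPM (-3.56 and -2.57).

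The other lists are given by their counts, beside 1.09% higher and 5.28% lower of all genes. Their lower calls are at full depth, and at matched number and depth only 52 of 5668 genes tested were lower. Of 35 tested ER chaperones and unfolded protein response genes none was higher, and HYOU1, DNAJB11 and PDIA4, luminal folding factors, were lower (HYOU1 27.1 CPM against 63.1 and 53.8 CPM). The list medians, -0.51 and -0.83, lay at and below those of all genes. Of 19 genes of glucose entry and metabolism, 19 immediate-early and heat shock genes and 7 minor islet peptides none was called, and the medians of the immediate-early and heat shock list were -1.13 against α-cells and 0.77 against β-cells. Of 17 senescence genes TIMP1 was higher and CDKN2B, IGFBP2, IGFBP7, VEGFA and TNFRSF11B were lower, with list medians of -1.52 and -1.40 beside -0.51 and -0.36 for all genes. Of these, CDKN2B, an inhibitor of CDK4 and CDK6, had 0.132 CPM in δ-cells, near the floor of the counts, against 7.18 and 6.30 CPM. CDKN1A, the p21 inhibitor, had 18.9 ± 31.7 CPM in δ-cells and 26.7 and 31.1 CPM in α- and β-cells (adjusted p = 0.0943 and 0.0995 by edgeR). CDKN2A, the p16 inhibitor, had 3.67 ± 6.01, 13.0 and 6.24 CPM (adjusted p = 0.0408 and 0.371 by edgeR) and so was not called against both. Of 9 tested retinoid genes RBP4 alone was called. Of 18 α-cell markers SLC7A2 was lower and none higher, and of 19 β-cell markers RBP4 was higher and NKX6-1 and SLC30A8 lower.

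Markers of non-endocrine cells were low. The summed levels over the 7 young and the 4 old monkeys were 0 to 113 CPM and 0 to 46.5 CPM for 9 stellate markers, 0 to 27.0 and 0 to 82.6 CPM for 8 endothelial markers, and 4.72 to 358 and 23.2 to 226 CPM for 9 immune markers. They were 75.6 to 386 and 107 to 1024 CPM for 8 ductal markers, where the highest value, that of old female 1, was 1017 CPM of SPP1, the osteopontin gene. Of 3, 2, 4 and 4 members tested, none was called for the stellate and endothelial lists, LYZ was higher for the immune list and KRT7 lower for the ductal list. S100B, the 1 Schwann marker of 6 that was tested, was higher, at 82.8 ± 120 CPM against 4.198 and 10.7 CPM, in 8 of 11 monkeys, and the Schwann sum was 0 to 143 CPM in young and 27.9 to 457 CPM in old monkeys. The part of these cells in the results was not tested.

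The genes called against α- and β-cells were also looked at in PP-cells. In the 4 monkeys with at least 5 cells of both types (old females 1 and 2, old male 2, young male 1), δ-cells were above PP-cells in all 4 for 53 of the 118 genes (44.9%, against 5.04% of all 10814) and below them in all 4 for 4 genes (3.39%, against 6.82%), and no test was run over 4 animals. The 4 genes were SLPI, a protease inhibitor, TFF3, a trefoil peptide of mucosa, PPP1R17, an inhibitor of protein phosphatases, and PKIB, an inhibitor of protein kinase A. The 118 genes were chosen as high in the same δ-cell sums, which makes a large share above PP-cells no independent evidence. RBP4 lay at 0 to 20.4 CPM and CALCB at 0 to 14.6 CPM in the PP-cells of these monkeys. Of 7 tested PP-cell markers 4 were higher in δ-cells than in both α- and β-cells, PPP1R17, ETV1, THSD7A and ABCC9, and none was lower. ABCC9, the sulfonylurea receptor subunit SUR2, had 39.3 ± 40.7 CPM in δ-cells and 0 to 48.6 CPM in PP-cells.

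δ-cells yielded less RNA than α-cells. The median δ-cell of a monkey held 45517 ± 11692 UMIs against 63239 ± 12340 in α-cells (n = 11), a ratio of 0.709, lower in 10 of 11 monkeys (exact sign-flip permutation test, two-sided, p = 0.00293, adjusted over 5 tests 0.00732). Per UMI of added spike-in RNA the difference was larger: 11.4 ± 2.51 against 18.2 ± 1.58 UMIs of macaque genes, a ratio of 0.614, lower in 11 of 11 monkeys (exact p = 0.000977, the smallest the test can give, adjusted 0.00488). The number of genes at 10000 UMIs was 2107 ± 478 in δ-cells and 2321 ± 292 in α-cells, lower by 214 genes on average and in 9 of 11 monkeys (exact p = 0.0137, adjusted 0.0228). It was lower by 192 without young male 3 and by 157 without old female 1 (exact p = 0.0273 each), and with means over cells in place of medians the difference was 159 genes (exact p = 0.0898), so that this result depends on that choice. All 3 are measures of captured RNA, and cell size was not measured.

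**Figure D4:**
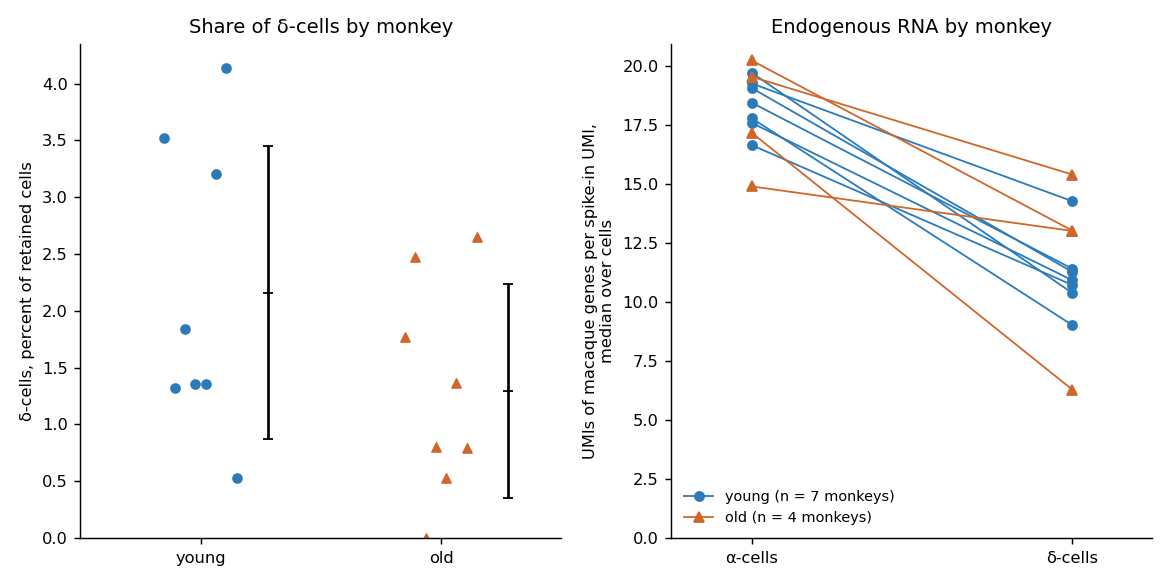
Left, δ-cells as a percentage of the retained cells of each monkey (points), with the mean and SD of 8 young and 8 old monkeys beside them. Right, UMIs of macaque genes per spike-in UMI (median over cells) in the α-cells and δ-cells of the 11 monkeys with at least 5 δ-cells, joined by monkey. All 11 lines fall from α- to δ-cells, and the young and old monkeys overlap in both panels.

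Whether δ-cells became rarer with age was compared over all 16 monkeys. In young monkeys δ-cells made up 0.531, 1.598 and 4.14% of the retained cells (lowest, median and highest), with a mean of 2.16% ± 1.29 (n = 8), and in old monkeys 0, 1.08 and 2.65%, with a mean of 1.297% ± 0.942 (n = 8). The groups overlapped widely, and the difference of -0.861 percentage points did not pass the test (exact permutation test, two-sided, p = 0.149). The shares count cells picked after dissociation. The UMIs per δ-cell had medians of 24391, 38783 and 57811 over the 7 young monkeys, and of 55572, 52478, 43675 and 64023 in old females 1 and 2 and old males 2 and 4. The highest old monkey lay above and the lowest near the middle of the young values, and the log2 difference of 0.44 did not pass the test (exact p = 0.0667, adjusted over 5 tests 0.0833). With means over cells the difference was 0.49 (p = 0.00606, the smallest that the exact test allows), without young female 2 it was 0.53 (exact p = 0.0286), and with animals of 3 or 4 δ-cells added it was 0.21 (exact p = 0.452). The part of depth per δ-cell in the gene comparisons that follow was not tested.

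The hormones of δ-cells are given by age as a description. SST lay at 79079, 95634 and 119427 CPM over 7 young monkeys, and at 83569, 76344, 83742 and 75635 CPM in old females 1 and 2 and old males 2 and 4. The old values lay at the lower end of the young range, and 2 of 4 were below the lowest young monkey. GCG in δ-cells had a mean of 27331 ± 6865 CPM in young and 19864 ± 7721 CPM in old monkeys, and INS 6378 ± 2773 and 6562 ± 3236 CPM.

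No gene passed the test between old and young δ-cells. Of 5807 genes tested with sex as a covariate, 0 were called at an adjusted p under 0.05 by edgeR (0.0%), and 239 (4.12%) had an unadjusted p under 0.05, 160 higher and 79 lower in old monkeys. DESeq2 called 6 genes, ORC5, SMPD2 and PPP6R3 higher and ABRAXAS2, FAM229B and C5orf63 lower in old monkeys. The precision was low, with a median standard error of 0.97 on the log2 scale over all genes and of 0.63 over the 2262 genes of 100 CPM or more. Differences of several times these errors also went uncalled, as for ORC5 below. The absence of calls therefore sets no narrow limit on the age differences. Age also moved with the number the animals carry in the file labels: of the 11 monkeys, 6 of 7 young and 1 of 4 old have numbers up to 9, and 1 young and 3 old higher ones. The difference between δ- and α-cells in their response to age gave 0 calls of 12470 genes (0.0%), with 456 (3.66%) at an unadjusted p under 0.05 and 7 calls by DESeq2.

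**Figure D5:**
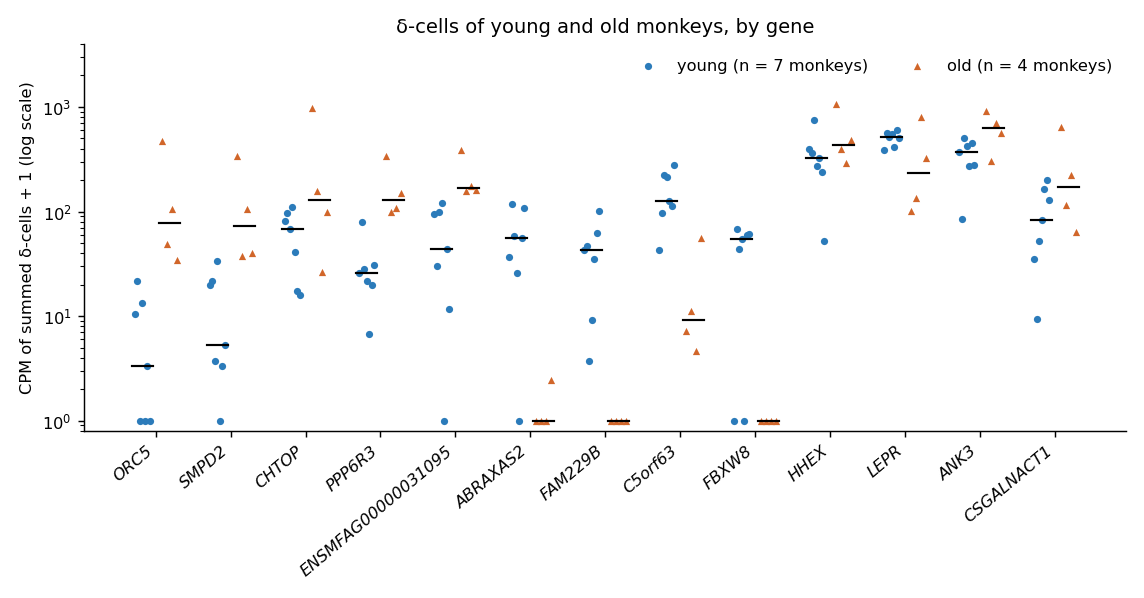
CPM plus 1 (log scale) in the summed δ-cells of each monkey for genes with the smallest p in each direction and for 4 δ-cell markers, circles for 7 young and triangles for 4 old monkeys, with the median as a bar. None of the 13 genes passed edgeR's adjusted test, and 6 of them did by DESeq2. ORC5, SMPD2, PPP6R3 and ENSMFAG00000031095 are above all young monkeys in all 4 old ones. FAM229B and FBXW8 are at 0 in all 4 old ones, and the 4 markers overlap between the ages.

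The genes nearest to the threshold are given by their values. ORC5, a subunit of the origin recognition complex, had 475, 48.3, 104 and 33.3 CPM in the δ-cells of old females 1 and 2 and old males 2 and 4, and 0 to 20.8 CPM in young monkeys (log2 difference 5.20, SE 1.02, adjusted p = 0.0825 by edgeR). All 4 old monkeys were above all 7 young ones. The signal lay in few cells: 6 of 30 old and 4 of 61 young δ-cells had a UMI, and 153 of the 229 UMIs of old cells (66.8%) came from 1 cell. In α-cells the same difference was -0.31 and in β-cells 0.20. SMPD2, a neutral sphingomyelinase, had 338, 36.2, 104 and 39.1 CPM in the old and 0 to 32.7 CPM in the young monkeys (log2 difference 3.99, adjusted p = 0.715 by edgeR), again with 59.6% of the old UMIs in 1 cell. PPP6R3, a regulatory subunit of protein phosphatase 6, had 338, 98.7, 108 and 149 CPM against 5.68 to 79.0 CPM (log2 difference 2.69, adjusted p = 0.826), and CHTOP, a chromatin and mRNA export factor, 968, 157, 25.2 and 98.6 CPM against 14.9 to 110 CPM (2.32, adjusted p = 0.822). Old female 1 was the highest of the 4 in each of these genes, and it was also 1 of the 2 animals with few genes at 10000 UMIs. The fifth gene, ENSMFAG00000031095, had 385, 155, 173 and 161 CPM against 0 to 119 CPM.

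In the other direction FAM229B had 0 UMIs in all 4 old monkeys and 2.70 to 100 CPM in young ones. A UMI was found in 0 of 30 old and 19 of 61 young δ-cells. FBXW8, the substrate receptor of a ubiquitin ligase, was at 0 UMIs in the 4 old monkeys too, but also in 2 of 7 young ones. The young monkeys ranged from 0 to 66.6 CPM, with a UMI in 8 of 61 cells. UMIs of the same cell are not independent counts, so no limit on the fold difference is given for these genes. ABRAXAS2, a scaffold of the BRISC deubiquitinase, had 1 UMI in old and 147 UMIs in young δ-cells. C5orf63, a glutaredoxin-like protein, had 6.2, 10.1, 3.60 and 55.1 CPM in old and 41.5 to 280 CPM in young monkeys (log2 difference -3.25, SE 0.87, adjusted p = 0.822 by edgeR). None of these passed edgeR's adjusted test, and FAM229B, ABRAXAS2 and C5orf63 passed that of DESeq2.

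The genes of δ-cell identity did not pass the age test either. HHEX had 1073, 393, 292 and 480 CPM in the old monkeys and 51.2 to 756 CPM in the young ones (log2 difference 0.90, SE 0.45, unadjusted p = 0.0539 and adjusted p = 0.999 by edgeR). LEPR had 99.3, 135, 807 and 326 CPM against 389 to 598 CPM (-0.92, SE 0.46, unadjusted p = 0.0546 by edgeR). It was below every young monkey in 3 of 4 old monkeys and above every young monkey in the other. ANK3 had 918, 300, 702 and 558 CPM against 83.2 to 505 CPM (0.93, SE 0.44, unadjusted p = 0.0423 by edgeR), and CSGALNACT1 645, 115, 223 and 62.3 CPM against 8.32 to 198 CPM (1.96, SE 0.78, unadjusted p = 0.0173 by edgeR), both with an adjusted p of 0.999. For RBP4, GHSR, EHF and PROCR the log2 differences were 0.01, 0.56, -0.02 and 0.46. In each gene list 0 members were called with age. Of 18 tested neuronal genes 4 had an unadjusted p under 0.05 (NRCAM, ANK3, MAP1B and MAP2), against 4.12% of all genes, and of 29 ER chaperones and unfolded protein response genes 1 (HSP90B1). Medians of the log2 differences were 0.14 for the neuronal list and 0.09 for the ER chaperones, beside -0.04 for all genes.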

How the data were processed

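Single islet cells were sequenced with a modified STRT protocol with UMIs. The authors made the deposited counts, raw UMI counts per gene and cell, by aligning to Macaca_fascicularis_5.0 with TopHat 2.0.12, counting with htseq-count and collapsing UMIs (per the labels, CASAVA 1.8 came before). The counts cover 21041 macaque genes and 95 spike-in rows, which were left out of CPM and tests. Doublets were not called, since cells were picked singly by hand.

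UMIs were summed per monkey and cell type for monkeys with at least 5 δ-cells. edgeR 4.0.16 (R 4.3.3; filterByExpr, TMM, quasi-likelihood test, Benjamini-Hochberg adjustment) compared types with monkey as a block, ages with sex as a covariate, and ages between types with an interaction term. SST, GCG, INS and PPY were left out of the age and interaction counts and of all tests named in the text. Single values were tested by exact permutation over monkeys (scipy 1.17.1). DESeq2 1.42.0 and limma 3.58.1 served as alternatives, and the fits were tested on simulated counts. p-values measure the spread between monkeys.

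Named genes were the marker genes, the genes the study's results name for δ-cells, the 20 highest by the smaller log2 fold change and the 8 lowest among genes with a UMI in over 25% of δ-cells (for the 8, with at least 10 CPM in α- or β-cells), the 5 genes per direction of smallest p for age with at least 10 CPM in an age group, and list members that were called or among the 4 most abundant. The members and the gene lists were chosen with earlier results of these data known. No sequences or coordinates are given, since none of this build was used here. Results for a few genes that the rule names are not reported here.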

Additional observations from a re-analysis of the deposited data

Results flagged for a closer look

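In 68 groups of 4 to 10 monkeys tested for a value far from the others, 12 were found, where the nominal rate is about 1 in 20 groups. That rate need not hold for CPM of few cells, and some genes were picked for their age difference. The 12 are therefore not read as an excess. Among the 7 young monkeys, young female 4 had 106 CPM of CDKN1A in its δ-cells, with the next monkey at 20.8 CPM. Young male 2 had 14.2 CPM of CDKN2A, with the next at 4.27 CPM, and young male 3 had 975.1 CPM of CPB1, with the next at 405 CPM. Young female 2 had 79.0 CPM of PPP6R3, with the next at 29.9 CPM. The δ-cells of young male 3 held a median of 1119.5 genes at 10000 UMIs, with the next young monkey at 2107.5.

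Among the 4 old monkeys, old female 1 stood above the others in 4 genes: AKAP12 with 521 CPM (next 203 CPM), ORC5 with 475 CPM (next 104 CPM), CHTOP with 968 CPM (next 157 CPM) and ENSMFAG00000031095 with 385 CPM (next 173 CPM). Old male 2 had 184 CPM of PROCR, with the next at 68.5 CPM. Old male 4 had 1.45 CPM of ABRAXAS2, where the other 3 had 0, and 55.1 CPM of C5orf63, where the next had 10.1 CPM. No cause was tested for any of these values.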

How the results depend on the processing

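The number of genes higher in δ-cells than in α- and β-cells, 118, was 205 with DESeq2, 181 with no filter on low counts, 68 with cells thinned to 10000 UMIs, 19 with stricter membership (50000 CPM and 4 times the next hormone, a set of fewer cells) and 53 at matched number and depth. The number lower, 571, was 308 with RLE factors, 211 thinned, 361 with a log2 fold change under -2, 264 with over 2000 genes and 20000 UMIs per cell, 3 with stricter membership and 52 at matched number and depth. Leaving out 1 monkey gave 106 to 129 higher and 383 to 558 lower genes. Of 697 values of named identity genes under alternatives 1 reversed, CDKN2A with 0.16 under stricter membership.

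The count of genes changed with age, 0, was 6 with DESeq2, 11 with no filter, 1 with at least 3 δ-cells per monkey, 1 (EGFR) with over 2000 genes and 20000 UMIs, 3 in females alone, 4 (ARPC5, ORC5, SPP1 and TRAF1) with a term for file numbers above 9, added after the data were seen, and 0 to 1 without 1 monkey (ORC5 without old female 2). The interaction with α-cells, 0, was 7 with DESeq2, 1 with looser membership, 1 without cells above the 95th percentile of UMIs, 2 with over 2000 genes and 20000 UMIs, and 0 to 2 without 1 monkey. With stricter membership neither could be fitted.

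With the replicate block the age count was 0, the same as without it, and RBP4 was -0.51. Same-numbered monkeys deviated together with r of -0.0031 to 0.025, and the block changed no call. Counting error in sums over few cells keeps such r low, so this check cannot decide whether they share more than a number.

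The age difference of some markers, none of them called, reversed. EHF (-0.02) was 0.083 with DESeq2, 0.081 with RLE factors, 0.15 thinned, 0.17 in females alone, 0.11 with limma, 1.04 with the file-number term and -0.67 to 0.26 without 1 monkey. RBP4 (0.01) was -0.10 with at least 3 δ-cells, -0.28 thinned, -0.012 without hormone counts, -0.32 with limma, -0.12 in males alone, -0.80 with over 20000 UMIs and -0.75 to 0.33 without 1 monkey. GHSR was -1.49 in males alone, -1.15 with over 20000 UMIs and -0.89 to 1.11 without 1 monkey. PROCR was -0.70 in females alone and -0.33 to 0.84 without 1 monkey, CSGALNACT1 -0.33 and LEPR 0.031 in males alone. The causes were not tested.

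UMIs per δ-cell by age were 0.49 with means over cells, 0.21 (exact p = 0.452) in monkeys with at least 3 δ-cells and 0.32 to 0.54 without 1 monkey, and genes at 10000 UMIs -159 with means (p = 0.0898, exact sign-flip permutation) and -256 to -157 without 1 monkey. Without 1 monkey the δ-cell share difference was -1.09 to -0.58 percentage points (-0.187 with stricter and -1.06 with looser membership), the log2 ratio of UMIs to α-cells -0.55 to -0.44 and that per spike-in UMI -0.75 to -0.63. The age comparison rests on 5 to 14 δ-cells per monkey.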

Other observations

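EGFR, the epidermal growth factor receptor, differed between monkeys in a way that followed the animals' numbers in the file labels, a pattern seen in these data and not planned. In the δ-cells of the 7 monkeys with numbers up to 9 (6 young and 1 old) EGFR lay at 0, 0 and 3.10 CPM (lowest, median and highest), and in the 4 monkeys with higher numbers (1 young and 3 old) at 98.6, 198 and 230 CPM. The ranges did not overlap. The same split was present in the other types: α-cells had 0.206, 0.578 and 11.3 CPM in 8 monkeys with numbers up to 9 and 73.1, 122 and 216 CPM in 8 with higher numbers, and β-cells 0, 0.409 and 15.1 CPM and 66.5, 119 and 173 CPM. Since 3 of the 4 old monkeys with at least 5 δ-cells have higher numbers, EGFR had a UMI in 22 of 30 old and 6 of 61 young δ-cells, with an unadjusted p of 0.029 and an adjusted p of 0.999 for age by edgeR. What the numbers stand for beyond the animal is not given in the sources used here, and no cause was tested.

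CARTPT, which encodes a peptide of islet neuroendocrine cells, did not pass the filter on low counts and has no test. In the δ-cells of the 11 monkeys it lay at 0, 28.3 and 526.4 CPM, and it had a UMI in 16.8% of δ-cells, 1.43% of α-cells and 0.552% of β-cells. CALB1 and KCNJ8, both called higher in δ-cells, were named after their values were seen. CALB1, the calcium buffer calbindin, had 80.7 ± 74.9 CPM in δ-cells (n = 11) against 2.87 and 7.60 CPM in α- and β-cells, with log2 fold changes of 4.79 (adjusted p = 1.25e-06 by edgeR) and 3.43 (adjusted p = 6.39e-04). KCNJ8, the pore of a KATP channel that pairs with the ABCC9 product, had 45.7 ± 43.5 CPM against 2.57 and 2.93 CPM, with log2 fold changes of 4.12 (adjusted p = 1.03e-04 by edgeR) and 4.89 (adjusted p = 1.26e-04). In the PP-cells of 4 monkeys KCNJ8 lay at 60.2 to 203 CPM, while the δ-cell mean covers 11 monkeys. KCNJ8 was not among the genes with PP-cells above δ-cells in all 4.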
